A study of Arabidopsis thaliana with 10 samples.

Results

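A set of 10 genes of glucosinolate synthesis was followed across the 10 leaf libraries of a study of Ran, a small GTPase of nuclear transport, in Arabidopsis thaliana. They were picked by gene symbol and locus, and all 10 had a row among the 33028 rows of the deposited count tables. Each passed the filter on low counts, which kept 21475 genes. Of them, 6 belong to the aliphatic branch (BCAT4, BAT5, MAM1, CYP79F1, CYP83A1 and MYB28) and 4 to the indole branch (CYP79B2, CYP79B3, CYP83B1 and CYP81F2). The plants were wild type Col and transgenic lines that overexpress RanT27N, which the labels tie to the GDP form of Ran, or RanG22V, tied to the GTP form. Plants were used at 4 weeks of age, after growth at 22 °C in days of 16 h light and 8 h dark, and the RNA is from the fifth and the sixth leaf. Detached leaves gave the day 0 (D0) libraries, and leaves kept in darkness for 3 days gave the D3 libraries. Col was sampled at D0 only, and each of the 5 groups has 2 libraries. The labels name neither the promoter of the transgenes nor the number of lines, and it is not stated whether libraries of a group are from separate plants, so a p-value here reflects no more than how far these libraries spread.

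Glucosinolates are sulfur-rich defence compounds of the cabbage family, stored in leaves apart from myrosinases, the enzymes that break them down when tissue is damaged. Aliphatic glucosinolates start from methionine, whose side chain is lengthened before the core structure is built, and indole glucosinolates start from tryptophan. In both branches a CYP79 enzyme turns the amino acid into an aldoxime and a CYP83 enzyme oxidises the aldoxime. Enzymes that follow are in part shared, and R2R3-MYB factors specific to a branch switch on its genes.

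For 8 of the 10 libraries the name in the header of the count file differs from the sample's label, so groups are written here as labelled, with the header's reading beside them. By its header, the RanT27N D0 pair is RanG22V at D0, and the RanT27N D3 pair is RanT27N at D0. Likewise the RanG22V D0 pair is RanG22V at D3, and the RanG22V D3 pair is RanT27N at D3, while Col has the same name in both. The 4 libraries labelled RanG22V are therefore the 4 dark-treated libraries by their headers. In these 4, SAG12, a protease gene of leaf senescence, stood at 139 to 756 CPM, which are counts scaled to the size of the library, against at most 1.22 CPM in the other 6. ASN1, an asparagine synthetase gene induced in the dark, stood at 10.8 to 1485 CPM in them against at most 1.35 CPM elsewhere. RAN1 stood at 256 to 437 CPM in Col and at 560 to 1518 CPM in the 8 transgenic libraries, and the counts do not separate the transgene from the plant's own Ran genes. The sum of 5 leaf markers was 6742 to 9196 CPM in Col and in both pairs labelled RanT27N, 2513 to 2769 CPM in RanG22V D3 and 555 to 903 CPM in RanG22V D0. The markers did not all move together. LHCB2.1 stood at 908 and 1331 CPM in RanG22V D3 against 26.0 and 1094 in RanT27N D3. RBCS1A, RBCS1B, RCA and PSBO1 were lower in RanG22V D3 than in RanT27N D3. The sum of 3 root markers was at most 5.94 CPM, with MYB36 and COBL9 at or near 0. The sum of 3 seed and flower markers was at most 0.785 CPM. Libraries held 14187505 to 24496672 counts, so that 1 count was worth 0.0395 to 0.066 CPM, and in a whole leaf fewer cells of a type cannot be told apart from less RNA per cell.

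Upstream sequences are shown for 4 members, the pair with the longest stretch in common, the gene with the most matches to a searched motif and the gene with both motifs. They are the 250 bases before the annotated gene start, read along the gene's strand from the TAIR10.1 reference. CYP79B2 (AT4G39950) and CYP79B3 (AT2G22330), the paralogous tryptophan-oxidising P450 genes at the entry of the indole branch, share a run of 22 identical bases, given in capitals. It is the longest run shared by any of the 45 pairs of members, and the longest of any other pair has 11 bases. It lies 77 to 56 bases before the start of CYP79B2 (window chr4:18524792-18525041, plus strand) and 151 to 130 bases before that of CYP79B3 (window chr2:9488163-9488412, plus strand). These 2 windows also share the run catatataacacgagga, which ends just before the capitals and is left in lower case.
CYP79B2: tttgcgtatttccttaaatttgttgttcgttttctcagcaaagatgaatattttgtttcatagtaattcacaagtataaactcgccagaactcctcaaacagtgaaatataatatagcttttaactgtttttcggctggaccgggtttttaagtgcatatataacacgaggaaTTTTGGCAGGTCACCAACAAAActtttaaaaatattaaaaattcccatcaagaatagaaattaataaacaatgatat
CYP79B3: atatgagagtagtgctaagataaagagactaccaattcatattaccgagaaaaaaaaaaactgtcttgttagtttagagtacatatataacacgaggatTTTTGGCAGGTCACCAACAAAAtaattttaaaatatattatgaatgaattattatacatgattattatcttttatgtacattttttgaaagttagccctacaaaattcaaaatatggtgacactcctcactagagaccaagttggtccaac
The other 2 belong to the aliphatic branch and have in capitals the matches to the I-box core GATAA and the G-box CACGTG, light-response motifs, on either strand. BAT5 (AT4G12030, window chr4:7210557-7210806, plus strand) holds the most GATAA matches of the 10, with 3. CYP83A1 (AT4G13770, window chr4:7992430-7992679, minus strand) is the single member with CACGTG and has 1 GATAA.
BAT5: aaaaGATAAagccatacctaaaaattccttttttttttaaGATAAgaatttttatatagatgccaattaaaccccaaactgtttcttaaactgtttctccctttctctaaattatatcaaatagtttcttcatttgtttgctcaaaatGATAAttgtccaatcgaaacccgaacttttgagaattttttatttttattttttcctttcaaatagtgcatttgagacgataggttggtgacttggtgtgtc
CYP83A1: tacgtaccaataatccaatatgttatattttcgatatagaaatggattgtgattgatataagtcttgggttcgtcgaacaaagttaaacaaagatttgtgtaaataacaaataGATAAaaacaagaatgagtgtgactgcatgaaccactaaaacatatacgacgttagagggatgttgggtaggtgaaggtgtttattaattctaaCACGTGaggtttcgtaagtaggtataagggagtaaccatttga
GATAA was found in 6 of the 10 windows (4 aliphatic, 2 indole), against 54.9% of the 27443 windows of all protein-coding genes, and CACGTG in 1 of 10 against 6.49%. No match overlaps another, and a match describes the sequence only.

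Over both days, 9 of the 10 genes fell in the 4 libraries labelled RanG22V against the 4 labelled RanT27N, which by the headers is leaves after darkness against leaves before it. The genes that fell were 5 of the 6 aliphatic and all 4 indole members, and none rose. The threshold was an adjusted p below 0.05 in edgeR's quasi-likelihood test with Benjamini-Hochberg adjustment over all 21475 genes, and by that rule 15.7% of all genes fell and 11.9% rose. The median log2 fold change of the members was −3.11, with −3.24 in the aliphatic and −1.94 in the indole branch, beside 0.00 over all genes tested. CYP79B3 had the lowest value, a log2 fold change of −4.78 ± 0.54 (SE), and CYP81F2 the weakest that passed, −1.10 ± 0.24. MYB28, the transcription factor of the aliphatic branch, did not pass (−0.41 ± 0.31, adjusted p = 0.374). The 9 calls were made again without each of the 10 libraries in turn.

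**Figure D1:**
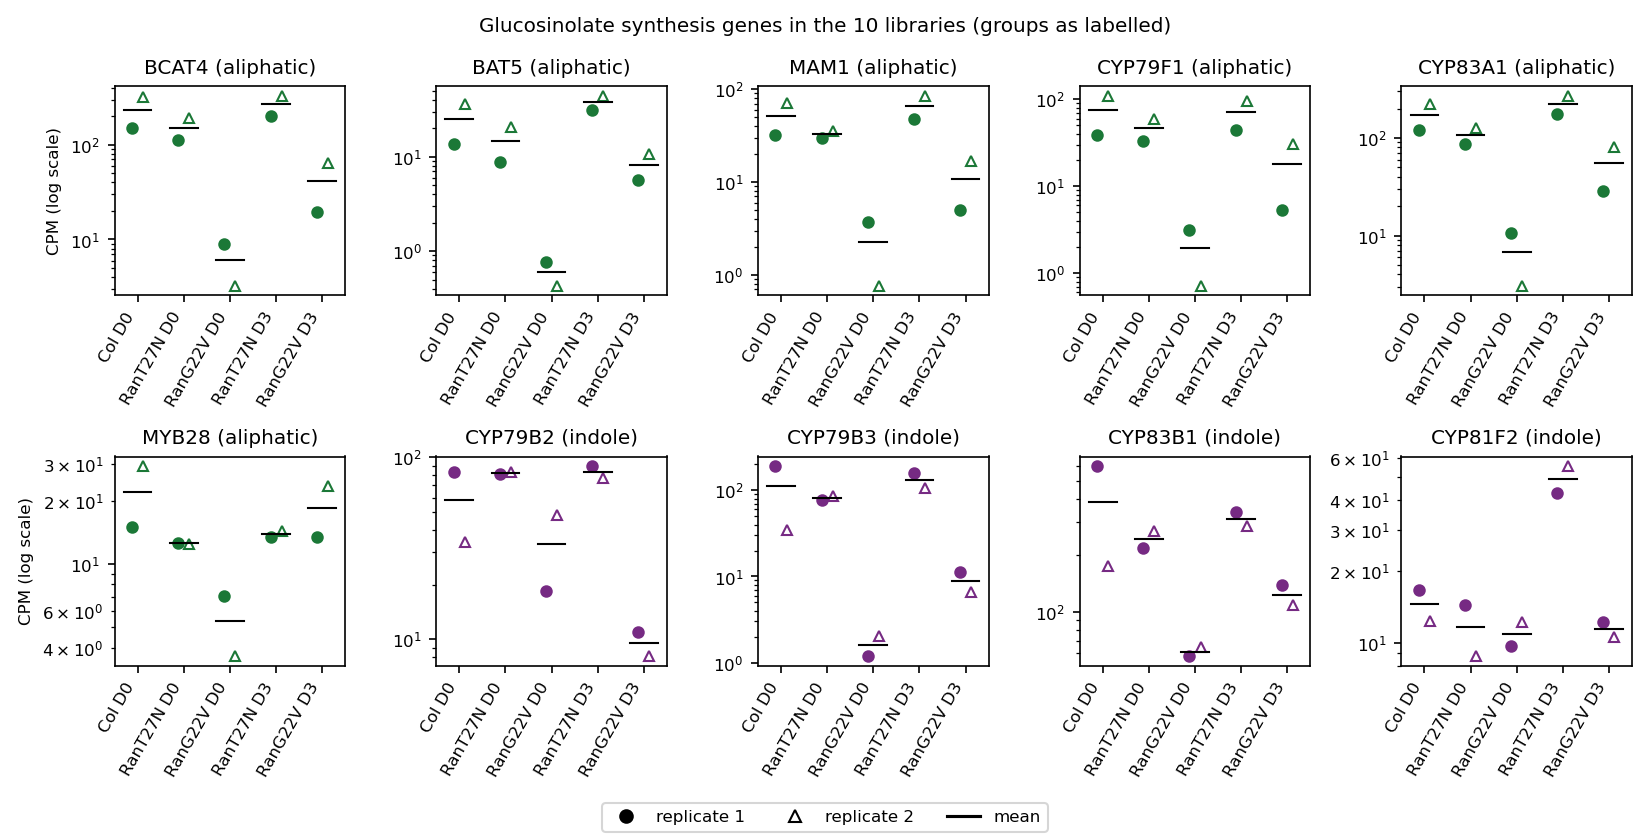
Level of each of the 10 genes in every library, in CPM on a log axis, by labelled group. Circles and triangles are replicates 1 and 2 and bars their mean. In BCAT4, MAM1, CYP79F1, CYP83A1, CYP79B3 and CYP83B1 every library labelled RanG22V lies below the 6 others, and in the other genes they overlap. How many of all genes separate so was not counted.

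The 3 members of aliphatic chain elongation, BCAT4, BAT5 and MAM1, had their lowest mean in the pair labelled RanG22V D0. BCAT4 (AT3G19710), the aminotransferase that starts the lengthening of methionine, stood in replicates 1 and 2 at 150.1 and 317 CPM in the pair labelled Col D0, 111 and 192 in RanT27N D0, 8.99 and 3.25 in RanG22V D0, 202 and 331 in RanT27N D3, and 19.7 and 63.5 in RanG22V D3. All 4 libraries labelled RanG22V lay below the other 6, and those of D0 below those of D3. BCAT4 fell by 4.63 ± 0.77 on the log2 scale in RanG22V D0 against RanT27N D0 (24.7-fold lower, adjusted p = 0.00373) and fell by 2.68 ± 0.70 in RanG22V D3 against RanT27N D3 (6.40-fold lower, adjusted p = 0.0400). By the headers these are darkness in the RanG22V line and darkness in the RanT27N line. BCAT4 overlaps a neighbour on the other strand, and their counts are almost the same, as described further down.

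BAT5, a plastid transporter that brings the keto acid made by BCAT4 into the chloroplast, stood at 13.8 and 36.4 CPM in Col D0, 8.92 and 20.8 in RanT27N D0, 0.776 and 0.431 in RanG22V D0, 31.0 and 44.6 in RanT27N D3, and 5.68 and 10.7 in RanG22V D3. The pair labelled RanG22V D0 lay far below all the others, and RanG22V D3 overlapped RanT27N D0. It fell by 4.60 ± 0.69 on the log2 scale in RanG22V D0 against RanT27N D0 (adjusted p = 0.00250) and fell by 2.21 ± 0.59 in RanG22V D3 against RanT27N D3 (adjusted p = 0.0428).

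MAM1 (AT5G23010), the methylthioalkylmalate synthase that adds carbon to the chain, stood at 31.7 and 71.7 CPM in Col D0, 29.8 and 35.2 in RanT27N D0, 3.74 and 0.766 in RanG22V D0, 47.4 and 85.5 in RanT27N D3, and 5.02 and 16.8 in RanG22V D3. The libraries labelled RanG22V did not overlap the others. MAM1 fell by 3.84 ± 0.82 on the log2 scale between the D0 pairs (adjusted p = 0.0119), and between the D3 pairs it was at −2.60 ± 0.76 without passing (adjusted p = 0.0593). Its coding sequence is 83.8% identical to that of its paralogue MAM3.

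The P450 genes of the aliphatic core followed the same order of groups at the low end. CYP79F1 (AT1G16410), which turns lengthened methionine into aldoximes, stood at 39.2 and 110.3 CPM in Col D0, 32.9 and 59.4 in RanT27N D0, 3.15 and 0.718 in RanG22V D0, 44.6 and 96.5 in RanT27N D3, and 5.35 and 30.9 in RanG22V D3. Its libraries labelled RanG22V lay below all others, but replicate 2 of RanG22V D3 only just so. CYP79F1 fell by 4.57 ± 1.01 on the log2 scale between the D0 pairs (adjusted p = 0.0141) and was at −1.96 ± 0.89 between the D3 pairs (adjusted p = 0.190). Its coding sequence is 91.9% identical to that of CYP79F2, so reads may be split between the 2 genes. CYP79F2 itself stood at 1.92 and 2.06 CPM in RanG22V D0 and at 3.43 to 10.8 CPM in the other 8 libraries.

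CYP83A1, which oxidises the aliphatic aldoximes, stood at 119.9 and 225 CPM in Col D0, 87.6 and 126 in RanT27N D0, 10.6 and 3.06 in RanG22V D0, 176 and 272 in RanT27N D3, and 28.8 and 81.3 in RanG22V D3. Again no library labelled RanG22V overlapped the others. CYP83A1 fell by 3.97 ± 0.72 on the log2 scale between the D0 pairs (adjusted p = 0.00570), and it was at −2.02 ± 0.66 between the D3 pairs (adjusted p = 0.0809).

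MYB28 (AT5G61420) activates the aliphatic genes and varied less than its targets. It stood at 15.0 and 29.4 CPM in Col D0, 12.6 and 12.5 in RanT27N D0, 7.07 and 3.64 in RanG22V D0, 13.5 and 14.4 in RanT27N D3, and 13.5 and 23.6 in RanG22V D3. The pair labelled RanG22V D0 was the lowest, and RanG22V D3 lay among the others. Neither difference between the lines as labelled passed, with −1.23 ± 0.45 at D0 (adjusted p = 0.0915) and 0.41 ± 0.44 at D3 (adjusted p = 0.597). MYB29, its closest paralogue and also an activator of the branch, is described with the wider pathway.

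In the indole branch, CYP79B3 varied most. It stood at 192 and 34.8 CPM in Col D0, 77.2 and 85.1 in RanT27N D0, 1.19 and 2.01 in RanG22V D0, 158 and 107 in RanT27N D3, and 11.2 and 6.52 in RanG22V D3. The 4 libraries labelled RanG22V lay far below the rest, though the 2 Col libraries lay far apart. CYP79B3 fell by 5.66 ± 0.80 on the log2 scale between the D0 pairs (50.6-fold lower, adjusted p = 0.00203) and fell by 3.90 ± 0.73 between the D3 pairs (14.9-fold lower, adjusted p = 0.0121).

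CYP79B2 makes the same indole-3-acetaldoxime as CYP79B3, and their coding sequences are 80.81% identical. It stood at 82.5 and 34.2 CPM in Col D0, 80.8 and 82.8 in RanT27N D0, 18.5 and 48.4 in RanG22V D0, 89.5 and 76.7 in RanT27N D3, and 11.0 and 8.09 in RanG22V D3. Unlike in CYP79B3, the pair labelled RanG22V D3 was the lowest and RanG22V D0 reached into the range of Col. CYP79B2 fell by 3.13 ± 0.54 on the log2 scale between the D3 pairs (8.74-fold lower, adjusted p = 0.00924) and was at −1.29 ± 0.51 between the D0 pairs (adjusted p = 0.111). The 2 paralogues thus stood in opposite order at D0 and D3 in the libraries labelled RanG22V. No library of either gene overlapped between those pairs, and how many of all genes separate so was not counted. Neither difference passed edgeR's test (CYP79B2 −1.81 ± 0.52, adjusted p = 0.0854, and CYP79B3 2.47 ± 0.72, adjusted p = 0.0890). With DESeq2 both passed (adjusted p = 0.0134 for CYP79B2 and 0.00598 for CYP79B3). DESeq2 called 2471 of 20818 genes there, against 846 of 21475 in edgeR's fit.

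CYP83B1 (AT4G31500), which oxidises the indole aldoxime and so takes it away from auxin synthesis, stood at 600.4 and 176 CPM in Col D0, 220.1 and 269.6 in RanT27N D0, 58.0 and 64.6 in RanG22V D0, 341 and 288 in RanT27N D3, and 138 and 108 in RanG22V D3. The libraries labelled RanG22V were the lowest 4. CYP83B1 fell by 2.00 ± 0.52 on the log2 scale between the D0 pairs (adjusted p = 0.0264) and was at −1.35 ± 0.51 between the D3 pairs (adjusted p = 0.118).

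CYP81F2 (AT5G57220) hydroxylates the indole ring of the finished glucosinolate and is known for its part in defence against fungi. It stood at 16.7 and 12.4 CPM in Col D0, 14.5 and 8.76 in RanT27N D0, 9.63 and 12.2 in RanG22V D0, 42.9 and 55.7 in RanT27N D3, and 12.2 and 10.6 in RanG22V D3. A single pair stood apart, RanT27N D3, which lay above the other 8 libraries, and those 8 overlapped. CYP81F2 fell by 2.12 ± 0.35 on the log2 scale between the D3 pairs (4.33-fold lower, adjusted p = 0.00735) and was at −0.09 ± 0.34 between the D0 pairs (adjusted p = 0.884). It also rose by 2.09 ± 0.35 in RanT27N D3 against RanT27N D0 (4.25-fold higher, adjusted p = 0.0473).

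Counted by comparison, 7 members fell in the pair labelled RanG22V D0 against RanT27N D0, 5 aliphatic and 2 indole, where 9.36% of all genes fell and 8.25% rose. Their median log2 fold change was −3.91 over the 10 members, with −4.27 for the aliphatic and −1.64 for the indole genes, beside −0.07 over all genes. In RanG22V D3 against RanT27N D3, 5 members fell, 2 aliphatic (BCAT4 and BAT5) and 3 indole (CYP79B2, CYP79B3 and CYP81F2), where 6.92% of all genes fell and 3.9% rose. Here the medians were −2.16 for the 10, −2.12 for the aliphatic and −2.62 for the indole members, and 0.01 for all genes. At D0 fewer members passed without replicate 2 labelled RanG22V D0. At D3 all calls were lost without either library labelled RanG22V D3, and fewer members passed without either labelled RanT27N D3. In each of these fits fewer of all genes passed as well. Losses within 1.5 times are not listed, and the D0 call of CYP83B1 did not hold in every fit without a library. With DESeq2 the D3 count was 8, where 4053 of 21854 genes passed, against 2324 of 21475 in edgeR's fit.

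**Figure D2:**
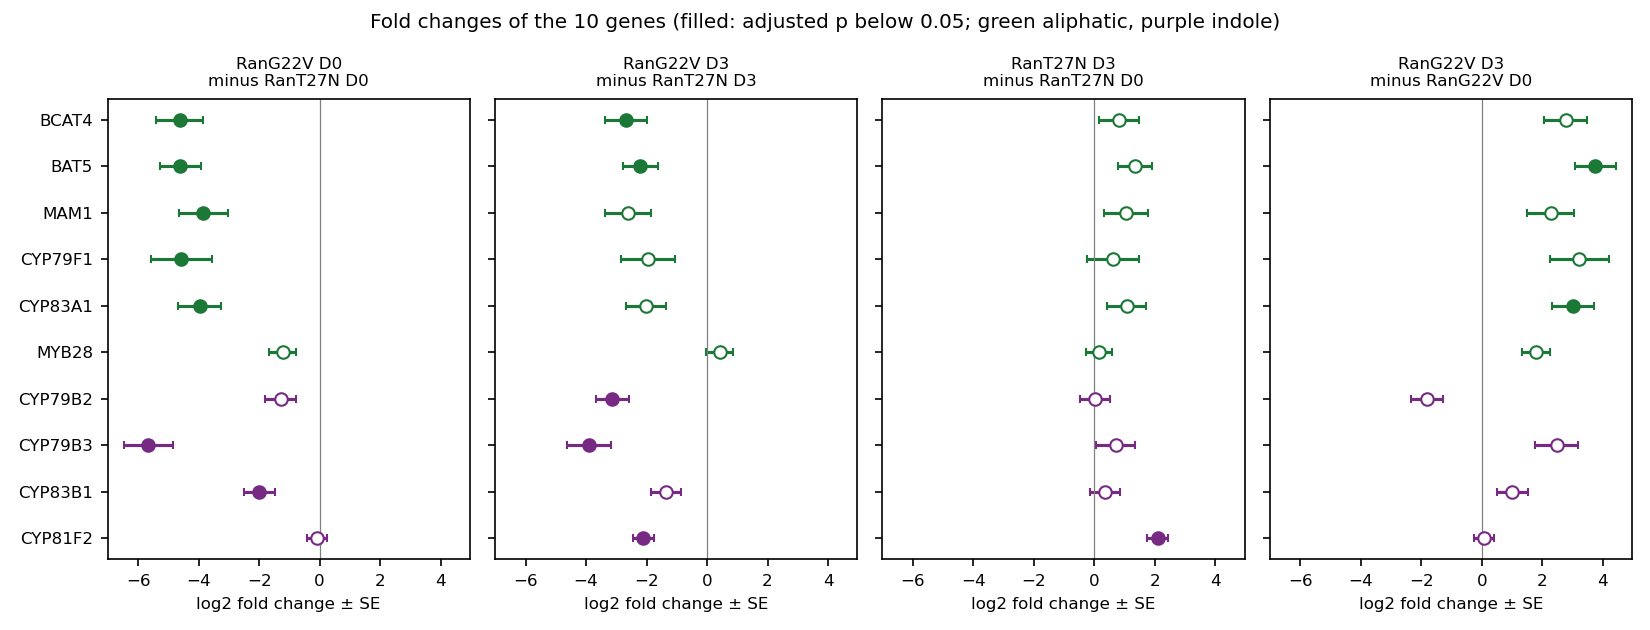
Log2 fold change ± SE of the 10 genes in 4 comparisons of labelled pairs, green for aliphatic and purple for indole genes, with filled points at an adjusted p below 0.05. The aliphatic points lie between −4.63 and −1.23 at D0 and between −2.68 and 0.41 at D3, and CYP81F2 is filled in the panel of RanT27N D3 minus RanT27N D0.

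Within a label, the days were compared next. In RanT27N D3 against RanT27N D0, which by the headers compares the lines before darkness, 1 member rose, CYP81F2, where 0.0233% of all genes rose and 0.321% fell. All 10 log2 fold changes were above 0, from 0.02 to 2.09 with a median of 0.76. The call of CYP81F2 held without either Col library and was lost without any of the other 8, including libraries outside the comparison. In RanG22V D3 against RanG22V D0, by the headers the lines after darkness, 2 members rose, where 1.17% of all genes rose and 2.77% fell. These were BAT5, by 3.74 ± 0.67 on the log2 scale (13.4-fold higher, adjusted p = 0.0201), and CYP83A1, by 3.01 ± 0.69 (8.06-fold higher, adjusted p = 0.0459). All 6 aliphatic values lay between 1.79 and 3.74, and the indole values between −1.81 and 2.47. Neither call held when any 1 library of these pairs was left out, and fewer of all genes passed there too. Fewer members and fewer genes passed without either library labelled RanT27N D3, and more of both without either Col library. With DESeq2 8 members passed, where 2471 of 20818 genes did, against 846 of 21475 in edgeR's fit.

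The interaction asks whether the difference between days differs between the labels, computed as RanG22V minus RanT27N by label. Under the headers it is the same test with the lines exchanged, so each value below keeps its size and turns its sign when read as RanG22V minus RanT27N. No member passed in edgeR's test, where 0.21% of all genes did. In that test 4 members (BAT5, MYB28, CYP79B2 and CYP81F2) had an unadjusted p below 0.05, as did 2714 of the 21475 genes. DESeq2 called 1 member, CYP81F2, where it called 683 of 20300 genes. By label, the aliphatic interaction values were all above 0, from 1.24 to 2.61, and the indole values ran from −2.02 (CYP81F2) to 1.76 (CYP79B3).

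Against Col D0, 8 members fell in the pair labelled RanG22V D0, where 12.1% of all genes fell. They were all 6 aliphatic genes, MYB28 among them (−2.05 ± 0.46, adjusted p = 0.0118), with CYP79B3 and CYP83B1. CYP79B2 (−0.80 ± 0.50) and CYP81F2 (−0.41 ± 0.34) did not pass. The largest fold was that of CYP79B3, 70.7-fold lower (−6.14 ± 0.82, adjusted p = 0.00116). The count of members called fell by more than 1.5 times without replicate 2 labelled RanG22V D0, where fewer of all genes passed too. Losses within 1.5 times are not listed, and the call of CYP83B1 did not hold in every fit without a library. In the pair labelled RanT27N D0 no member passed in edgeR's test, where 0.247% of all genes did. No member had an unadjusted p below 0.05 there, where 1864 of 21475 genes did. DESeq2 called 0 members, where it called 383 of 21854 genes. The member values there ran from −0.82 to 0.49 on the log2 scale. In the pair labelled RanT27N D3 none passed, where 0% of all genes did, although 867 genes had an unadjusted p below 0.05. CYP81F2 was the member among these, at 1.76 ± 0.34 (3.40-fold higher, adjusted p = 0.575), and DESeq2 called it among 47 of 23408 genes. By the headers these comparisons set RanG22V after darkness, RanG22V before darkness and RanT27N before darkness against Col.

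The branches were set side by side by the mean log2 fold change of the 6 aliphatic genes minus that of the 4 indole genes, with no test. The difference was −1.55 between the D0 pairs, 0.78 between the D3 pairs and −0.38 over both days, and 2.37 in RanG22V D3 against RanG22V D0. For scale, the branch difference had a pooled SD of 1.29 between libraries of a pair. At D0 the aliphatic mean was thus further below RanT27N than the indole mean and at D3 less far. The first and the last of these values exceeded that SD with all libraries in, but neither did so when certain single libraries were left out. The D0 difference was −0.60 without replicate 2 labelled RanG22V D0, −1.18 without replicate 2 labelled RanT27N D0 and −2.84 without replicate 1 labelled RanG22V D0. The difference in RanG22V D3 against RanG22V D0 was 1.19 without replicate 2 labelled RanG22V D3, 1.42 without replicate 2 labelled RanG22V D0 and 3.66 without replicate 1 of the latter pair. Between the D3 pairs it was −0.40 without replicate 2 labelled RanG22V D3, 1.57 without replicate 1 of that pair, and 0.42 and 1.23 without replicates 1 and 2 labelled RanT27N D3. Over both days it ran from −1.03 to 0.089. The aliphatic mean includes the regulator MYB28, which had the highest aliphatic value between the D0 pairs (−1.23) and between the D3 pairs (0.41). The branch difference without MYB28 was not computed.

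In some pairs the branches also differed in how the replicates stood. All 6 aliphatic genes were higher in replicate 2 in the pairs labelled Col D0, RanT27N D3 and RanG22V D3, and 5 of 6 in RanT27N D0, whereas all 6 were higher in replicate 1 in RanG22V D0. Of the 4 indole genes, all were higher in replicate 1 in Col D0 and RanG22V D3 and all in replicate 2 in RanG22V D0. In RanT27N D0, 3 of the 4 indole genes were higher in replicate 2, as were most of the aliphatic genes there, and in RanT27N D3 3 of the 4 were higher in replicate 1. The aliphatic mean exceeded the indole mean by 1.99 in replicate 2 of Col D0 and by 1.70 in replicate 2 of RanG22V D3, and lay 2.63 below it in replicate 2 of RanG22V D0. LHCB2.1, a light-harvesting gene among the leaf markers, stood at 10.7 and 739 CPM in Col D0, 13.3 and 1166 in RanT27N D0, 152 and 79.0 in RanG22V D0, 26.0 and 1094 in RanT27N D3, and 908 and 1331 in RanG22V D3, and its part in the order of the replicates was not tested.

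**Figure D3:**
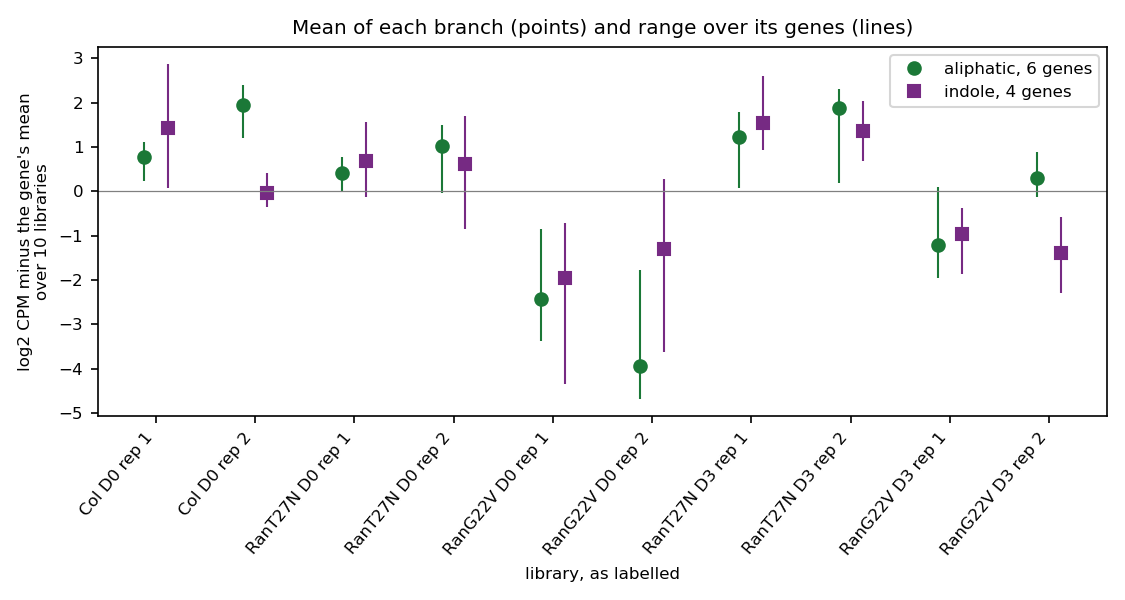
Mean over the genes of each branch of log2 CPM minus the gene's own mean, per library, with lines from the lowest to the highest gene. The aliphatic mean runs from −3.93 to 1.94 and the indole mean from −1.95 to 1.53, and they lie furthest apart in replicate 2 of RanG22V D0.

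Over the 10 libraries, the log2 CPM of 2 aliphatic genes had a median Pearson correlation of 0.972 over 15 pairs (0.781 to 0.993). Pairs of indole genes had 0.604 over 6 pairs (0.489 to 0.972), and an aliphatic with an indole gene 0.499 over 24 pairs (−0.159 to 0.875). These are descriptions, since all points share the same libraries, depth and scaling. Outside the pathway lists, among 9853 genes with a mean of at least 10 CPM, the 5 genes most like the aliphatic mean were IKU2 (r = 0.994), AK3, an aspartate kinase gene (0.991), DJ1F (0.985), AT1G78070 (0.978) and AT4G00780 (0.976). For the indole mean they were AT3G43270 (0.987), CSLA10 (0.983), AT5G42570 (0.981), AT2G27680 (0.980) and CLH1, a chlorophyllase gene (0.979).

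IKU2, a receptor kinase gene known for its part in seed size, lies beside BCAT4. In TAIR10.1, IKU2 (AT3G19700) is at chr3:6843662-6847275 on the plus strand and BCAT4 at chr3:6846969-6849582 on the minus strand, and their 3′ ends overlap by 307 bases. In every library the IKU2 count was 94.12% to 100.0% of the BCAT4 count, for example 2994 and 3009 in replicate 1 of Col D0, 197 and 197 in replicate 1 of RanG22V D0 and 1310 and 1336 in replicate 2 of RanG22V D3. Whether reads were counted by strand is not given in the sources used here, and the values of the 2 rows cannot be told apart. No other member overlaps an annotated gene. AK3 overlaps its neighbour AT3G02010 by 2537 bases, also on opposite strands.

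**Figure D4:**
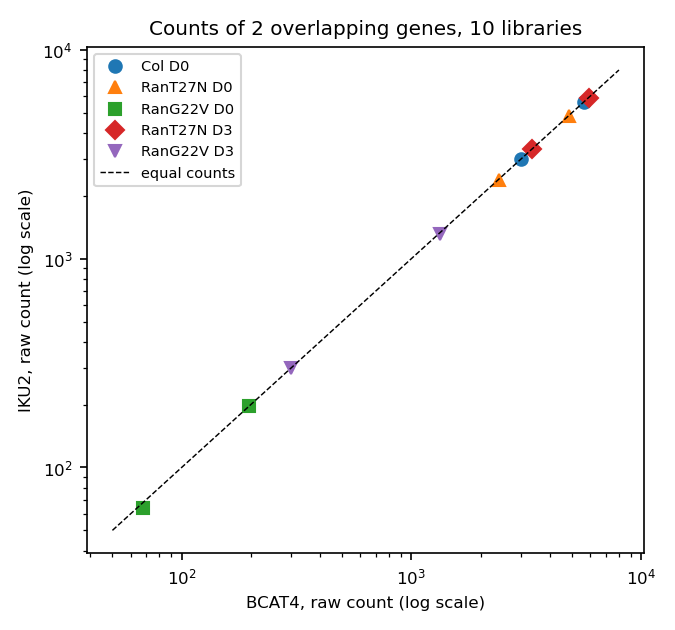
Raw counts of BCAT4 and IKU2 in the 10 libraries on log axes, by labelled group, with a dashed line at equal counts. All 10 points lie on or close below the line, from 68 and 64 to 5902 and 5853 counts.

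The other genes of the pathway were read from a list of 69, of which 65 had a row of their own and 63 passed the filter. Over both days 33 of the 63 fell and 5 rose, with a median log2 fold change of −1.39, where 15.7% of all genes fell and 11.9% rose. Between the D0 pairs 24 fell and 3 rose, beside 9.36% and 8.25% of all genes, and between the D3 pairs 17 fell and 1 rose, beside 6.92% and 3.9%. Over both days all 5 genes shared by the branches for the core structure and sulfate activation fell, as did 5 of 6 other aliphatic core genes, 5 of 8 chain-elongation genes and 8 of 11 indole core and side-chain genes. Of the aliphatic side-chain genes 2 of 7 fell and 1 rose, and of the myrosinase and specifier genes 3 of 7 fell and 2 rose. Lists of 7 genes are too short for such counts to be read against the shares over all genes. The chain-elongation genes IPMI SSU1 and IMD3 were at 0.54 and 0.84 on the log2 scale and did not pass. The 2 tryptophan-supply genes were at −0.45 and −0.60 and did not pass.

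GSTU20, a glutathione transferase assigned to the aliphatic core, stood at 152 and 274 CPM in Col D0, 195 and 120.4 in RanT27N D0, 1.96 and 1.44 in RanG22V D0, 279 and 216 in RanT27N D3, and 10.2 and 17.6 in RanG22V D3. It lay lower in every library labelled RanG22V than in all the others. It fell by 6.53 ± 0.54 on the log2 scale between the D0 pairs (92.4-fold lower, adjusted p = 0.000315) and fell by 4.15 ± 0.48 between the D3 pairs (17.8-fold lower, adjusted p = 0.00260). The chain-elongation genes IMD1, a dehydrogenase, and IPMI SSU2 and IPMI SSU3, isomerase subunits, fell by 3.89, 4.35 and 3.66 on the log2 scale between the D0 pairs. IMD1 stood at 24.1 to 64.7 CPM outside the libraries labelled RanG22V and at 1.48 to 12.4 in them. In RanG22V D3 against RanG22V D0, 6 of the 63 rose and 2 fell, where 1.17% of all genes rose and 2.77% fell. The 6 that rose are all aliphatic: GSTU20 by 3.02, IPMI SSU2 by 3.46, IPMI SSU3 by 2.69, FMO GSOX3, an S-oxygenase of the side chain, by 3.59, and IMD1 and MAM3. The 2 that fell were CYP81F1 and NSP5.

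APK2, which makes the activated sulfate used in the last core step, stood at 33.0 to 85.0 CPM in the 6 libraries not labelled RanG22V, 4.65 and 5.55 in RanG22V D0 and 12.1 and 12.03 in RanG22V D3. It fell by 3.14 ± 0.36 on the log2 scale at D0 (adjusted p = 0.000829) and fell by 2.69 ± 0.35 at D3 (adjusted p = 0.00349). TGG1, the main myrosinase of leaves, stood at 261 to 614 CPM in the 6, 17.5 and 26.7 in RanG22V D0 and 24.9 and 11.2 in RanG22V D3. It fell by 4.22 ± 0.59 at D0 (adjusted p = 0.00186) and fell by 4.75 ± 0.60 at D3 (adjusted p = 0.00330). Both genes lay lower in all 4 libraries labelled RanG22V than in the 6 others.

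Of the MYB regulators besides MYB28, 1 of 2 in the aliphatic branch (MYB29) and 1 of 3 in the indole branch (MYB34) fell over both days, between the D0 pairs and between the D3 pairs, and none rose. MYB51, an activator of the indole branch, was at −0.57 ± 0.45 between the D0 pairs and −0.90 ± 0.45 between the D3 pairs, and MYB122, of the same branch, at 2.50 ± 2.03 and 1.23 ± 2.19. MYB76, of the aliphatic branch, was at −4.26 ± 2.17 and −2.33 ± 1.88, with at most 1.07 CPM in any library, and none of these 3 passed. Of the 7 other regulators listed, 1 fell over both days, where 15.7% of all genes fell. Between the D3 pairs 1 of the 7 rose and 1 fell, beside 3.9% and 6.92% of all genes. These lists of 2, 3 and 7 regulators are too short for such counts to be read against the shares over all genes. MYB34, also an activator of the indole branch, stood at 5.76 to 27.9 CPM in the 6 libraries not labelled RanG22V, at 0.0913 and 0.383 in RanG22V D0 and at 0.726 and 0.381 in RanG22V D3. It fell by 5.79 ± 1.02 on the log2 scale at D0 (adjusted p = 0.00495) and fell by 4.93 ± 0.96 at D3 (adjusted p = 0.0136). MYB29 was chosen after its values were seen. It stood at 3.14 and 10.9 CPM in Col D0, 3.33 and 11.3 in RanT27N D0, 8.54 and 15.5 in RanT27N D3, 0 and 0 in RanG22V D0, and 0.462 and 0 in RanG22V D3. With 3 counts in each library as the floor of a count of 0, MYB29 was at least 52.1-fold lower in RanG22V D0 than in RanT27N D0, a floor that covers counting error only. GTR1, a glucosinolate transporter, fell by 3.52 ± 0.63 at D3 (adjusted p = 0.0105) and was at −1.81 ± 0.59 at D0 (adjusted p = 0.0638). IGMT2, a methyltransferase of indole glucosinolates, fell by 3.87 ± 0.79 at D3 (adjusted p = 0.0168), from 11.7 and 11.0 CPM in RanT27N D3 to 0.792 and 0.761 in RanG22V D3.

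The largest rises of the wider list between the D0 pairs were those of CYP81F1 and NSP5. CYP81F1, a P450 that hydroxylates the indole ring like CYP81F2, stood at 8.88 and 9.18 CPM in Col D0, 11.2 and 26.0 in RanT27N D0, 1637 and 1875 in RanG22V D0, 15.3 and 10.8 in RanT27N D3, and 26.4 and 21.1 in RanG22V D3. The pair labelled RanG22V D0 was far above all the others. CYP81F1 rose by 6.56 ± 0.54 on the log2 scale between the D0 pairs (94.4-fold higher, adjusted p = 0.000315) and was at 0.87 ± 0.43 between the D3 pairs (adjusted p = 0.226). CYP81F2, whose coding sequence is 70.75% identical, stood at 9.63 and 12.2 CPM in that pair. NSP5, a nitrile-specifier protein that acts on the products of myrosinase, stood at 147 to 329 CPM in the 6 libraries not labelled RanG22V, 11541 and 9462 in RanG22V D0 and 574 and 400.5 in RanG22V D3. NSP5 rose by 5.37 ± 0.53 at D0 (41.2-fold higher, adjusted p = 0.000494) and was at 1.59 ± 0.45 at D3 (adjusted p = 0.0521).

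Camalexin, like the indole glucosinolates, comes from indole-3-acetaldoxime. PAD3, a P450 of its synthesis, was the gene of the wider list that fell in RanT27N D3 against RanT27N D0. It was 1 of 63 genes tested, where 0.321% of all genes fell. It stood at 53.2 and 97.6 CPM in RanT27N D0, at 16.7 and 10.15 in RanT27N D3 and at 10.5 to 30.1 in the other 6 libraries, and fell by 2.49 ± 0.41 on the log2 scale (5.62-fold lower, adjusted p = 0.0473). The pair labelled RanT27N D0 lay above all the others. PAD3 did not pass in edgeR's test with only the libraries compared, nor without either library labelled RanT27N D3, settings in which no gene at all passed. The call of PAD3 was not examined under the other settings. In the same comparison CYP81F2 rose, and none of the other 9 members passed.

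**Figure D5:**
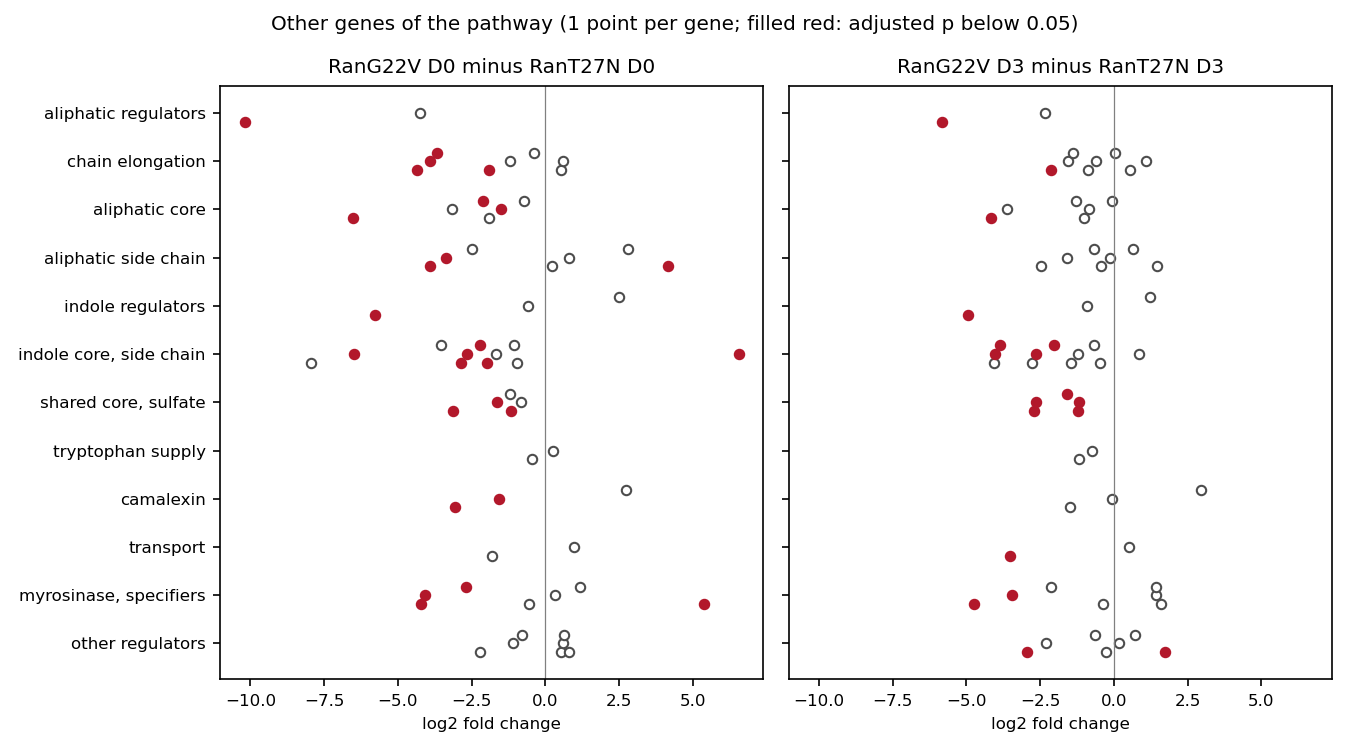
Log2 fold change of the 63 other genes of the pathway between the labelled pairs at D0 and at D3, by role, with filled red points at an adjusted p below 0.05. Filled points lie mostly left of 0, and on the right at D0 are CYP81F1 at 6.56, NSP5 at 5.37 and GSL-OH at 4.15.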

How the data were processed

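The values are raw counts of reads for each gene as the authors deposited them, in 1 table for each library. Bowtie2, edgeR and TAIR10 are named in the submitters' processing notes; for versions, the counting program or strandedness, nothing is stated there. The labels name a Lexogen QuantSeq kit, and no length correction was made, so levels are not compared between genes. The deposited counts were fitted in R 4.3.3 with edgeR 4.0.16: filterByExpr, TMM scaling, 1 model of 5 labelled group means over all 10 libraries, the quasi-likelihood test, and Benjamini-Hochberg adjustment over 21475 genes. CPM use the TMM-scaled library sizes, and log2 CPM a prior count of 2. An SE is |log2 fold change| over the square root of the F statistic. Replicate libraries differed by more than counting noise, so none was treated as a copy. Rows were paired with loci by name through TAIR10.1 (98.6%), and 429 rows share a name with another, among them TSA1, PEN2 and ESP, whose values are not used. AOP2 is not used here. Coding identities come from pairwise alignment in Biopython 1.88. Reads carry no molecular identifiers. The code of the fit was tested on counts simulated with the fit's own spread, which checks the code and not the calls made here. Alternatives were RLE scaling, no filter, a stricter filter, DESeq2 1.42.0, only the libraries compared, a replicate block and leaving out each library. The members, lists and tests were chosen with earlier results of these data known. Named besides the members are up to 6 called pathway genes per comparison with the smallest adjusted p, the label checks and the 5 most similar genes per branch.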

Additional observations from a re-analysis of the deposited data

Results flagged for a closer look

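CYP81F1, an indole-ring hydroxylase gene, was the 1 of 63 wider-pathway genes whose difference between days differed between the labels, beside 0.21% of all genes. Its interaction value was −5.69 ± 0.64 on the log2 scale by edgeR's quasi-likelihood test of the interaction itself (adjusted p = 0.0161), with the sign as labelled and turned under the headers. The labelled RanG22V libraries stood at 1637 and 1875 CPM at D0 and 26.4 and 21.1 CPM at D3, and the labelled RanT27N libraries at 11.2, 26.0, 15.3 and 10.8 CPM. No member passed that test. Whether the call of CYP81F1 holds under other settings was not examined. Over all genes the interaction calls went from 45 of 21475 in this fit to 683 of 20300 with DESeq2.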

How the results depend on the processing

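The count of members called stayed within 1.5 times in every comparison under RLE scaling and the stricter filter. With no filter it became 8 in RanG22V D3 against RanT27N D3, 8 in RanG22V D3 against RanG22V D0 (7 higher, 1 lower) and 1 in the interaction. Over all genes these comparisons went from 2324, 846 and 45 calls to 3709, 2107 and 568. With DESeq2 the member counts were 8, 8 and 1, and RanT27N D3 against Col D0 gave 1. All genes then gave 4053, 2471, 683 and 47 calls. With only the libraries compared the first 2 member counts were 8 and 8, and RanT27N D3 against RanT27N D0 gave 0. All genes then gave 3060, 3607 and 0 calls. Leaving out each library gave 9 to 9 over both days, 4 to 7 between the D0 pairs, 0 to 7 between the D3 pairs, 0 to 1 for RanT27N D3 against RanT27N D0, 0 to 6 for RanG22V D3 against RanG22V D0, and 5 to 8 for RanG22V D0 against Col D0. In these fits the calls over all genes changed as well. The lone library is assumed there to vary like the other groups, and the cause of the changes was not tested. The branch difference between the D0 pairs ran from −2.84 to −0.60 without a library.

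Of the single-member values 22, over 16 results that did not pass in the fit of all libraries, changed sign when a library was left out. For RanT27N D0 against Col D0 they ran over −1.28 to 1.24 (CYP79B3), −1.34 to 0.50 (CYP83B1), −1.49 to 0.060 (BAT5), −1.24 to 0.19 (CYP79F1) and −0.056 to 1.28 (CYP79B2). For RanT27N D3 against Col D0 they ran over −0.21 to 0.80 (BCAT4), −0.081 to 1.04 (MAM1), −0.96 to 0.88 (CYP83B1), −0.70 to 0.82 (CYP79F1), −0.012 to 1.32 (CYP79B2) and −0.56 to 1.97 (CYP79B3). CYP81F2 ran over −0.41 to 0.29 between the D0 pairs and −0.10 to 0.24 in RanG22V D3 against RanG22V D0. In RanT27N D3 against RanT27N D0, CYP79B2 ran over −0.10 to 0.17 and CYP79F1 over −0.0044 to 1.10, and MYB28 over −0.041 to 0.76 between the D3 pairs.

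The file headers end in Set1 for replicate 1 and Set2 for replicate 2, and what a set was is not stated. The deviations of libraries with the same replicate number correlated by −0.0076 to 0.310 over all genes. They were over 0.1 in the 3 pairs among Col D0, RanT27N D0 and RanT27N D3 (0.124, 0.310 and 0.188) and not in the other 7, so the numbers are not taken to pair the samples. Over the 10 members alone they ran from −0.943 to 0.928. With the replicate block, RanT27N D3 against RanT27N D0 gave 0 members (CYP81F2, edgeR adjusted p = 0.0529) and RanG22V D3 against RanG22V D0 gave 1 (CYP83A1 lost, adjusted p = 0.0528), and the other counts stayed within 1.5 times.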
